A study of Mus musculus with 12 samples.

Results

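The genes described are those of the interleukin-6 (IL-6) family and its shared receptor chain gp130 that were counted in sorted hippocampal microglia. They were picked by name from the deposited table of raw counts: Il6st, Il6ra, Il6, Ebi3, Stat3 and Socs3, 6 of the 545 immune genes on the panel. The cells came from the hippocampus of male Balbc pups at postnatal day 28. The control group held 6 samples and the group exposed to brief daily separation (BDS) held 6, with every pup from a different litter. For BDS, pups and mother were kept apart for 15 min daily, from postnatal day 1 to day 21; the labels describe no such handling of the controls. Microglia are the macrophages that live in brain tissue; here they were enriched on a Percoll gradient and sorted, and nCounter barcodes were counted on 2 ng of RNA after 5 rounds of PCR, without sequencing.

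IL-6 signals through a receptor pair. The cytokine binds Il6ra, which has no signalling activity of its own, and this complex recruits gp130, encoded by Il6st, which is also used by the other cytokines of the family. Jak kinases bound to gp130 then activate the transcription factor Stat3, and one of its target genes, Socs3, encodes a protein that binds gp130 and shuts the signal off. Ebi3 encodes a soluble, receptor-like subunit that pairs with Il27 to form one heterodimeric cytokine of the family and with Il12a to form another. Microglia and macrophages are known both to make IL-6 and to respond to it.

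Only some of these genes have a match to a regulatory motif just before the start of the gene, and those windows are shown because Il6 and Ebi3 were the 2 members with higher values in BDS, and Socs3 is the classical Stat3 target. The windows come from RefSeq (GRCm38.p6), which held 1 promoter of 300 bases (250 before the start and 50 after) for each of the 6 members. Capitals mark the match, to the NF-kB consensus in Il6 and Ebi3 and to the STAT motif TTCNNNGAA in Socs3. The Il6 window is chr5:30013014-30013113 (plus strand), the Ebi3 window chr17:55952523-55952622 (plus strand), and the Socs3 window chr11:117969502-117969530 (minus strand).
Il6: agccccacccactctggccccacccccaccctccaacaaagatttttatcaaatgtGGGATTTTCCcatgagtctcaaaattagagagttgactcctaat
Ebi3: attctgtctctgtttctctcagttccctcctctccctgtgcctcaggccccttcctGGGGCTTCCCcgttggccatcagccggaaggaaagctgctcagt
Socs3: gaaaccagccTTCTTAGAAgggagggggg
The NF-kB match began 44 bases before the start in both Il6 and Ebi3 (position -44), and Ebi3 held another at position 15 after the start. The STAT match of Socs3 began at position -154. Il6st, Il6ra and Stat3, 3 of the 6 members, held neither motif in this window. Both strands were searched, and the NF-kB consensus was found in 8.46% and the STAT motif in 8.30% of all 32851 promoters of this length listed there. A match of letters is a description and not a binding site. The part of NF-kB or Stat3 in the values of these genes was not tested.

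Each count was scaled by a factor from 6 housekeeping genes of its sample (their geometric mean), and the result is called the normalized count. Total endogenous counts ran from 827591 to 1341132 in controls and from 577135 to 1103445 in BDS. Housekeeping counts were lowest for BDS 21, BDS 25 and BDS 55, with factors of 0.59, 0.63 and 0.83 against 0.85 to 1.42 in controls, so the fold changes and ratios of the 6 members are also given without them. The 7 microglial markers on the panel summed to 300578 to 331137 (controls) and 291582 to 386862 (BDS) normalized counts, and all 7 were above background in enough samples to be tested. Among markers of other cells, Cd3d, Cd3e and Cd28 (T cells), Pax5 (B cells), Cxcr2 and Camp (neutrophils), and Cd163 (border macrophages) were above background in 0 of 12 samples. Other markers were above background in enough samples to be tested: 2 each for T cells, B cells, neutrophils, and monocytes or border macrophages. So were all 3 endothelial markers on the panel and both markers of neurons, astrocytes or oligodendrocytes. Summed markers on the panel overlapped between the groups: 66.0 to 105.7 against 67.5 to 113.6 normalized counts for the 6 T cell markers (controls first), 177.7 to 285.6 against 164.1 to 361.3 for the 5 B cell markers, 341.4 to 602.5 against 318.9 to 513.8 for 4 monocyte and border macrophage markers. The 5 neutrophil markers summed to 3215 to 3830 and 3174 to 3792, of which Csf3r made up 98.6%, and the 3 endothelial markers to 989 to 1396 and 959 to 1344. The 2 markers of neurons, astrocytes or oligodendrocytes on the panel summed to 127.5 to 251.4 and 117.2 to 189.5. Single markers of other cells had lower values in BDS at an unadjusted p under 0.05 (edgeR; adjusted p = 0.247 to 0.38): Lck (T cells) at a log2 fold change of -0.53 ± 0.18 (SE), Ccr2 (monocytes) at -0.36 ± 0.17 and Cdh5 (endothelium) at -0.32 ± 0.14. Without BDS 21, BDS 25 and BDS 55 these values were -0.58, -0.16 and -0.16 (edgeR, unadjusted p = 0.0176, 0.441 and 0.351). The part of other cells in the results below was not tested. In such bulk samples fewer cells of a type and less RNA per cell cannot be told apart.

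The background limit of a sample is 2 SD above the mean of its 8 negative-control probes, and the 357 genes that exceeded it in 5 or more of the 12 samples were tested. All 6 members passed this filter; 5 were above background in 12 of 12 samples and Il6 in 6 of 12. None of the 6 passed the adjusted threshold of 0.05 in edgeR's quasi-likelihood test, as for 0% of all tested genes. At an unadjusted p under 0.05 there were 3 members, Il6st lower and Il6 and Ebi3 higher in BDS, where 12.3% of tested genes reached that p (11.5% lower and 0.84% higher). Because these genes were chosen with earlier results known, that count is a description. For none of the 6 did the groups separate completely, while 1.12% of tested genes had every BDS sample below every control and 0% had every BDS sample above. The members' median log2 fold change was -0.12, beside -0.10 over all tested genes.

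**Figure D1:**
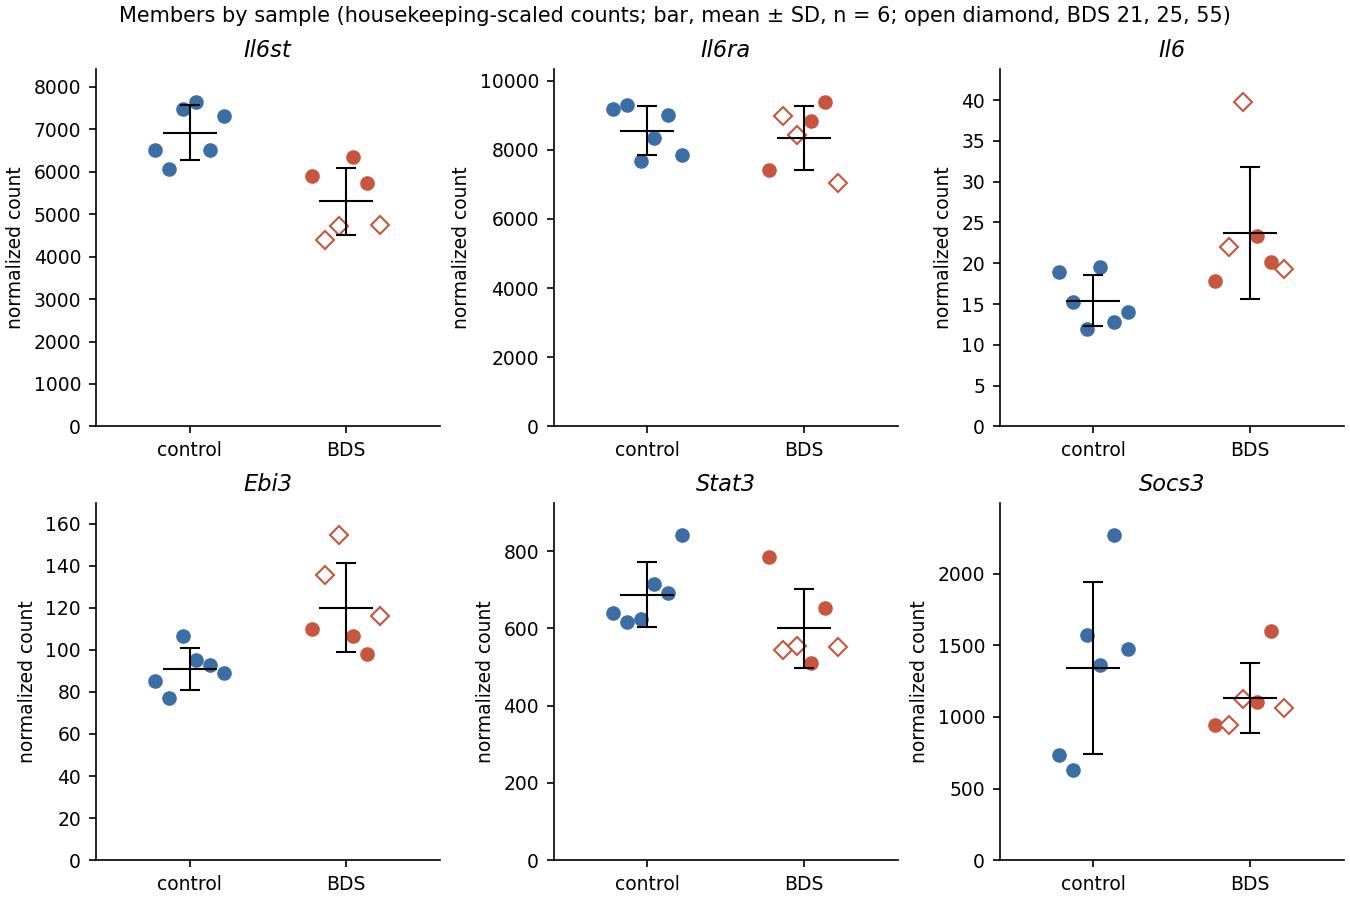
Normalized counts (vertical axes, each starting at 0) of the 6 members in 6 control and 6 BDS samples; each point is 1 sample, the bar is the mean ± SD, and open diamonds are BDS 21, BDS 25 and BDS 55. For Il6st 5 BDS samples lie below the lowest control, for Il6 and Ebi3 4 BDS samples lie above the highest control, and for Il6ra and Socs3 the groups overlap. Il6 lies near the highest negative-control probes, above the background limit in 3 of 6 samples of each group.

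Of the receptor chains, Il6st (NM_010560.2), the signalling chain gp130, had lower values in BDS, short of the adjusted threshold, and Il6ra (NM_010559.2), the chain that binds IL-6 itself, overlapped between the groups. Il6st had 6519, 6052, 7474, 7648, 6507 and 7317 normalized counts in controls 5, 9, 13, 27, 44 and 54. Samples BDS 7, 21, 25, 35, 43 and 55 had 5895, 4396, 4721, 6352, 5734 and 4737. All 6 BDS samples were below the control mean and 5 were below the lowest control, with BDS 35 inside the control range. The means were 6920 ± 645 and 5306 ± 790 (SD, n = 6), a log2 fold change of -0.38 ± 0.10 (SE), or 0.767-fold with a 95% interval of 0.659 to 0.892. Among the 357 tested genes Il6st had the second smallest p (rank 2; unadjusted p = 0.00205, adjusted p = 0.167, edgeR), and its log2 fold change was the 19th lowest (rank 19).

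The 3 BDS samples with low housekeeping counts were also the 3 lowest for Il6st. The log2 fold change without them was -0.21 ± 0.09 (SE; edgeR, unadjusted p = 0.0365, adjusted p = 0.771). In BDS 7 and BDS 43 Il6st stayed below the lowest control. With each sample left out in turn the log2 value lay between -0.44 and -0.33, at unadjusted p-values of 0.000629 to 0.00633 (edgeR). Il6st passed the adjusted threshold under 1 alternative, chosen after seeing the data: DESeq2 with a local dispersion trend gave it an adjusted p of 0.00856 and called 18 genes, while DESeq2 with its default parametric trend gave 0.0866 and called 0. In the authors' deposited table the Il6st means are 7127 and 5534, with a ratio of 0.78 (deposited p = 0.0061).

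Il6ra had 9167, 9296, 7674, 8341, 9002 and 7846 normalized counts in controls 5, 9, 13, 27, 44 and 54, and 7403, 8964, 8436, 8832, 9390 and 7038 in BDS 7, 21, 25, 35, 43 and 55. The ranges overlapped almost entirely, with BDS 55 the lowest of all samples and BDS 43 the highest. Its log2 fold change was -0.04 ± 0.09 (SE; edgeR, unadjusted p = 0.687, adjusted p = 0.827). The 95% interval ran from 0.857-fold to 1.11-fold, so changes within that range were not excluded. The sign of this small difference turned with the scaling, to 0.06 with TMM, which scales to the tested genes themselves. Without BDS 21, BDS 25 and BDS 55 it was -0.002.

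A ratio of 2 genes in the same sample does not depend on how samples are scaled, and was used to compare the chains directly. Because probes differ in efficiency, only differences in a ratio between samples are read. The log2 ratio of Il6st to Il6ra counts was -0.49, -0.62, -0.04, -0.13, -0.47 and -0.10 in controls 5, 9, 13, 27, 44 and 54. In BDS 7, 21, 25, 35, 43 and 55 it was -0.33, -1.03, -0.84, -0.48, -0.71 and -0.57. BDS 21, BDS 25 and BDS 43 lay below every control and the other 3 within the control range. The means were -0.31 ± 0.25 and -0.66 ± 0.25 (SD, n = 6), a difference of -0.35 or 0.784-fold (two-sided exact permutation test over all rearrangements of the samples, p = 0.0411; Benjamini-Hochberg adjusted p = 0.123 over 3 ratios). The difference was -0.20 without BDS 21, BDS 25 and BDS 55 (exact permutation p = 0.298; adjusted p = 0.875). Since Il6st was known to be lower, this ratio is no independent test of it.

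**Figure D2:**
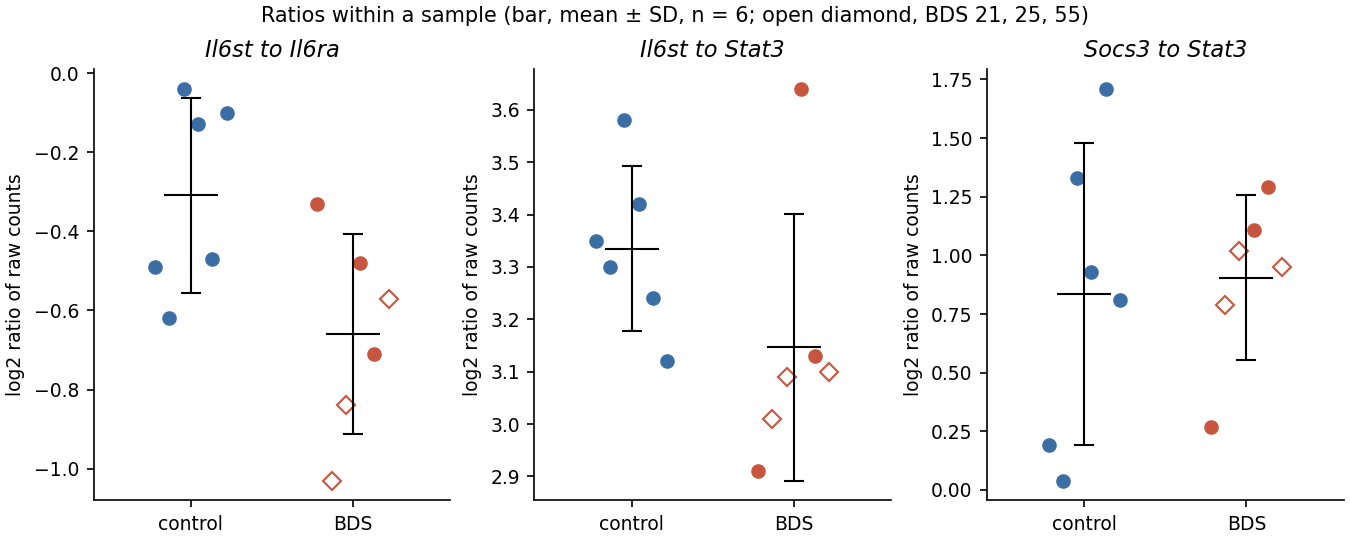
Log2 ratios of raw counts within a sample (vertical axes, not starting at 0) for Il6st to Il6ra, Il6st to Stat3 and Socs3 to Stat3 in 6 control and 6 BDS samples; points are samples, bars are mean ± SD, and open diamonds are BDS 21, BDS 25 and BDS 55. Il6st to Il6ra averages -0.31 in controls and -0.66 in BDS, while Socs3 to Stat3 averages 0.84 and 0.90 with wide spread among the controls.

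Among the ligand genes, Il6 itself lay near the highest negative-control probe of each sample. Raw counts of Il6 (NM_031168.1) were 16, 16, 12, 26, 13 and 20 in controls 5, 9, 13, 27, 44 and 54, where the background limits were 15.3, 16.3, 19.0, 21.3, 20.1 and 18.7. In BDS 7, 21, 25, 35, 43 and 55 they were 19, 13, 25, 23, 25 and 16, against limits of 21.8, 18.2, 20.0, 20.7, 20.6 and 20.9. Il6 was thus above the limit in 3 of 6 samples of each group. It exceeded the highest negative probe of its sample in 8 of 12 samples, by 6 counts at most.

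After housekeeping scaling the Il6 means were 15.4 ± 3.2 (controls) and 23.7 ± 8.1 (BDS) normalized counts (SD, n = 6). Its log2 fold change was 0.59 ± 0.22 (SE; edgeR, unadjusted p = 0.0171, adjusted p = 0.269), and 4 of 6 BDS samples lay above the highest control. Of these 4, BDS 21 had a raw count of 13, under its background limit of 18.2. BDS 25 was highest at 39.8 normalized counts, and the other 5 BDS samples were at 17.8 to 23.3. Without BDS 25 the log2 fold change of Il6 was 0.40 (edgeR, unadjusted p = 0.0535, adjusted p = 0.618). The negative probes, which match no mouse transcript, moved the same way under the same scaling. Their mean was 9.6 ± 0.9 raw counts in controls and 10.2 ± 1.0 in BDS, and 8.9 ± 1.4 and 12.1 ± 3.4 once scaled (SD, n = 6), a log2 ratio of 0.45. Scaled negative probes were highest in BDS 21, BDS 55 and BDS 25, at 17.4, 13.8 and 13.7.

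Before scaling, mean Il6 counts were 17.2 ± 5.2 in controls and 20.2 ± 5.0 in BDS (SD, n = 6). With the negative-probe mean subtracted before scaling, the log2 difference of Il6 was 0.73 ± 0.46 (SE; limma, unadjusted p = 0.136, adjusted p = 0.458). The edgeR value was 0.40 ± 0.20 without BDS 21, BDS 25 and BDS 55 (SE; unadjusted p = 0.0859, adjusted p = 0.903), and the scaled negative probes then had a log2 ratio of 0.07 between the groups. Beyond these values, the part of background and scaling in the difference of Il6 was not tested. The authors' deposited table lists Il6 above background in 58% of samples, at means of 16 and 25, with a ratio of 1.55 (deposited p = 0.0356).

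**Figure D3:**
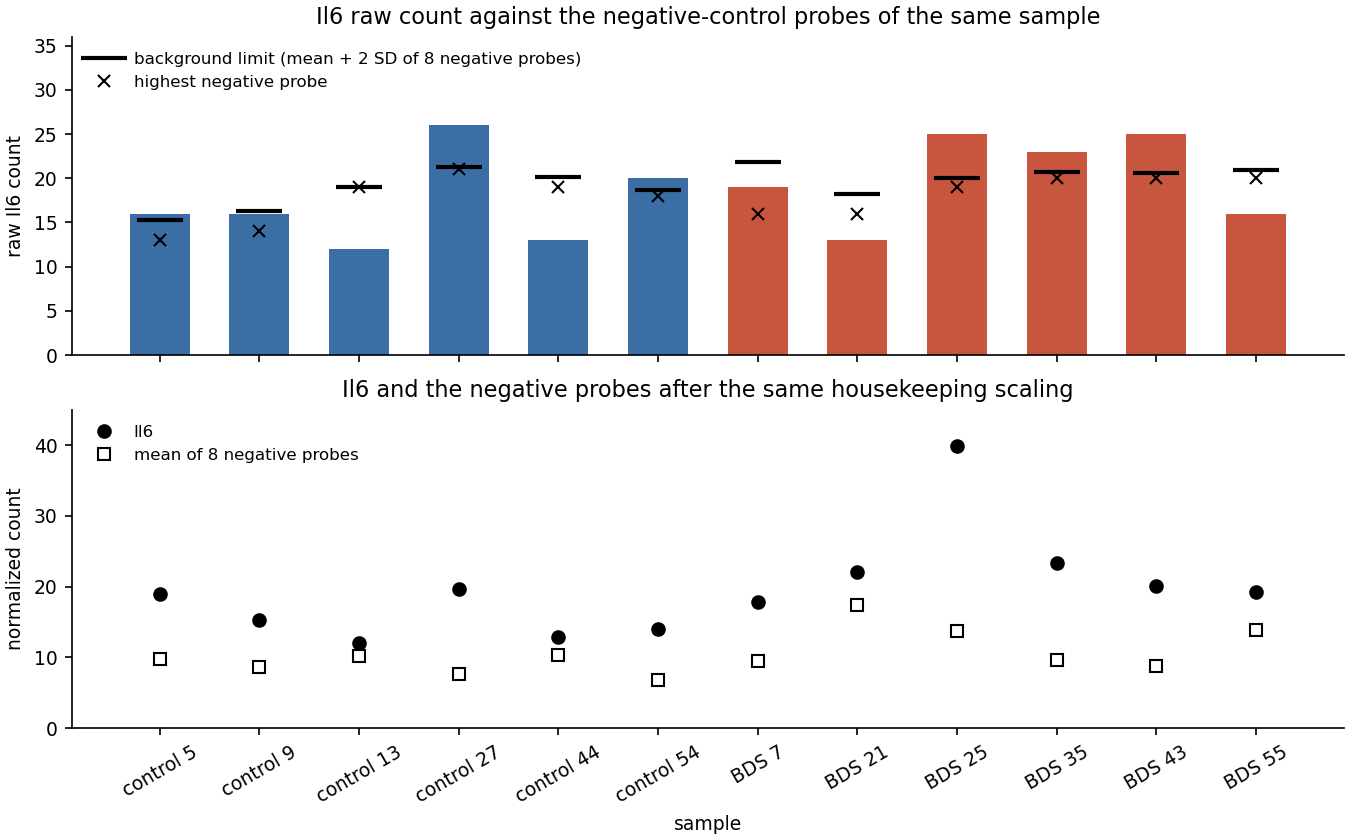
Upper plot, raw Il6 counts (bars from 0, blue controls and red BDS) with the background limit (line, mean plus 2 SD of 8 negative probes) and the highest negative probe (cross) of each sample. Lower plot, Il6 (filled) and the mean of the negative probes (open) after the same housekeeping scaling; bars pass the limit in 3 controls and 3 BDS samples, and the open squares are highest in BDS 21.

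Ebi3 (NM_015766.2) was clear of background in all 12 samples, at 72 to 127 raw counts against limits of 15.3 to 21.8. Its raw counts averaged 101 ± 23 in controls and 103 ± 15 in BDS (SD, n = 6). Normalized counts were 85.0, 77.2, 106.8, 95.1, 92.9 and 89.2 in controls 5, 9, 13, 27, 44 and 54. They were 109.7, 135.7, 154.4, 106.4, 98.1 and 116.1 in BDS 7, 21, 25, 35, 43 and 55. All 6 BDS samples lay above the control mean and 4 above the highest control, with BDS 25, BDS 21 and BDS 55 the highest.

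The group means of Ebi3 were 91.1 ± 10.01 and 120 ± 21 (SD, n = 6), a log2 fold change of 0.39 ± 0.14 (SE; edgeR, unadjusted p = 0.0139, adjusted p = 0.247). It was 0.20 ± 0.14 without BDS 21, BDS 25 and BDS 55 (SE; edgeR, unadjusted p = 0.182, adjusted p = 0.906). These samples held the highest BDS values of Ebi3, so a smaller value was bound to follow from leaving them out. With the negative-probe mean subtracted before scaling, the log2 difference of Ebi3 was 0.38 ± 0.12 (SE, limma, unadjusted p = 0.00887, adjusted p = 0.3). Ebi3 kept its direction under 25 of 26 alternatives, at 0.49 ± 0.14 with TMM (SE, edgeR adjusted p = 0.374). It turned with positive-control scaling alone. Scaled to the positive-control probes, which follow the assay and not the amount of RNA, the log2 fold change of Ebi3 was -0.08 ± 0.36 (SE; edgeR, adjusted p = 0.835) and that of Il6 0.13 ± 0.34 (SE; edgeR, adjusted p = 0.74). In the authors' deposited table the Ebi3 means are 94 and 125, with a ratio of 1.33 (deposited p = 0.0082).

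Genes of the panel were also grouped by their mean raw count. The 89 tested genes with a mean raw count under 50, where Il6 falls, had a median log2 fold change of 0.04, and 49 of them lay above 0. The 61 genes from 50 to 200, where Ebi3 falls, had a median of -0.12, with 23 above 0. Medians were -0.10 for 82 genes from 200 to 1000, -0.17 for 86 genes from 1000 to 5000 and -0.16 for 39 genes above 5000, where Il6st and Il6ra fall. With BDS 21, BDS 25 and BDS 55 left out, the 5 medians were -0.04, -0.13, -0.07, -0.09 and -0.10, in the same order of level. The part of gene level in the values of Il6 and Ebi3 was not tested.

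Downstream of gp130, neither Stat3 nor Socs3 passed an unadjusted p of 0.05. Stat3 (NM_213659.2), the main transcription factor activated by gp130, had 640, 616, 625, 715, 691 and 841 normalized counts in controls 5, 9, 13, 27, 44 and 54. Samples BDS 7, 21, 25, 35, 43 and 55 had 785, 544, 554, 511, 654 and 553. In BDS, 4 samples lay below the lowest control, while BDS 7 was higher than 5 of the 6 controls. The means were 688 ± 84 and 600 ± 102 (SD, n = 6), with a log2 fold change of -0.20 ± 0.12 (SE; edgeR, unadjusted p = 0.122, adjusted p = 0.436). Single samples set its size: it was -0.29 without BDS 7 (edgeR, unadjusted p = 0.0142, adjusted p = 0.104) and -0.13 without control 54 (edgeR, unadjusted p = 0.291, adjusted p = 0.685). Without BDS 21, BDS 25 and BDS 55 it was -0.08 ± 0.15 (SE; edgeR, adjusted p = 0.972).

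Socs3 (NM_007707.2), the feedback inhibitor, varied widely among controls. It had 732 and 631 normalized counts in controls 5 and 9, and 1575, 1365, 2266 and 1476 in controls 13, 27, 44 and 54. BDS 7, 21, 25, 35, 43 and 55 had 944, 941, 1122, 1103, 1600 and 1065, all within the control range. The highest control was 3.59 times the lowest, against 1.70 times in BDS. The coefficient of variation was 44.8% in controls, the 24th highest of the 357 tested genes (rank 24; median 14.8%), and 21.5% in BDS (rank 152; median 19.4%). Whether the spread itself differs between the groups was not tested.

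The means of Socs3 were 1341 ± 601 and 1129 ± 243 (SD, n = 6), with a log2 fold change of -0.25 ± 0.26 (SE; edgeR, unadjusted p = 0.356, adjusted p = 0.665). The 95% interval ran from 0.574-fold to 1.24-fold, so changes within that range were not excluded. Without control 44 the value was -0.03 (edgeR, adjusted p = 0.942), and without control 9 it was -0.39 (edgeR, adjusted p = 0.366). With BDS 21, BDS 25 and BDS 55 left out it was -0.14 ± 0.37 (SE; edgeR, adjusted p = 0.972).

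The log2 ratio of Socs3 to Stat3 averaged 0.84 ± 0.65 in controls and 0.90 ± 0.35 in BDS (SD, n = 6), a difference of 0.07 (two-sided exact permutation p = 0.814; adjusted p = 0.814 over 3 ratios). Controls spanned 0.04 to 1.71 and enclosed all BDS samples, which spanned 0.27 to 1.29. For Il6st to Stat3 the averages were 3.33 ± 0.16 and 3.15 ± 0.25 (SD, n = 6), a difference of -0.19 (two-sided exact permutation p = 0.16; adjusted p = 0.24). In 4 of 6 BDS samples this ratio lay below the lowest control, and in BDS 35 it lay above the highest, at 3.64 against 3.58. Without BDS 35, the only BDS sample above the controls, the difference was -0.28 (exact permutation p = 0.00649; adjusted p = 0.0195). The other 14 of 15 alternatives left this difference short of the adjusted threshold. Without BDS 21, BDS 25 and BDS 55 it was -0.11 (exact permutation p = 0.583; adjusted p = 0.875) for Il6st to Stat3 and 0.05 (exact permutation p = 0.905; adjusted p = 0.905) for Socs3 to Stat3.

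**Figure D4:**
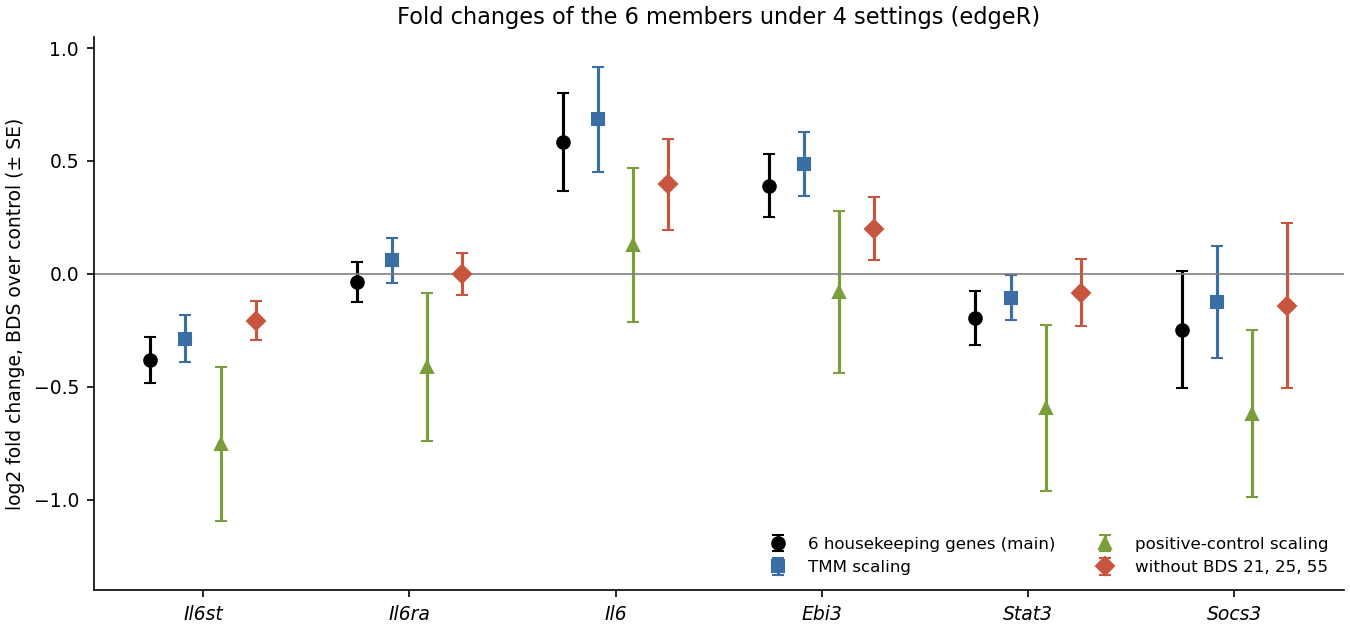
Log2 fold changes of the 6 members (vertical axis, BDS over control, ± SE; edgeR) with the 6 housekeeping genes, with TMM scaling, with positive-control scaling and without BDS 21, BDS 25 and BDS 55. Il6st lies below 0 in all 4 settings, from -0.75 to -0.21; Ebi3 lies above 0 except with positive-control scaling (-0.08), and Il6ra lies within 0.06 of 0 except with positive-control scaling (-0.41).

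Of 35 other genes of the pathway, 18 were on the panel and 13 could be tested. Of these 13, 7 had log2 fold changes below 0 and 6 above, with a median of -0.04 and 0 past the adjusted threshold in edgeR (1 at an unadjusted p under 0.05). The kinases that bind gp130 did not pass: Jak2 and Tyk2 were at -0.10 ± 0.10 and -0.11 ± 0.10 (SE), near the panel median of -0.10, and both at -0.01 with TMM. Jak1 was at -0.07 ± 0.19 (SE).

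The partners of Ebi3 were measured as well. Il27 was above background in 12 of 12 samples, at 111 ± 19 (controls) and 116 ± 24 (BDS) normalized counts (SD, n = 6), with a log2 fold change of 0.07 ± 0.17 (SE) that turned to -0.12 without BDS 21, BDS 25 and BDS 55. Il12a was above background in 1 of 12 samples and Lif, a further gp130 cytokine, in 0 of 12. Receptor chains near background were Il27ra and Il11ra1. Il27ra, the specific chain for the cytokine of Il27 and Ebi3, exceeded the limit in 6 of 12 samples and had a log2 fold change of 0.11 ± 0.19 (SE), or 0.25 without BDS 21, BDS 25 and BDS 55. Il11ra1, the chain that binds interleukin-11, exceeded it in 5 of 12, at 17.3 ± 2.9 and 23.6 ± 10.5 normalized counts (SD, n = 6) and 0.41 ± 0.24 (SE), with 0.13 left without BDS 21, BDS 25 and BDS 55. Of the Stat3 targets, 4 of the 6 on the panel were tested, 2 below 0 and 2 above. Bcl6, a transcriptional repressor, was at -0.19 ± 0.14 and turned to 0.08 without those 3 samples. Icam1, an adhesion molecule, and Cebpb, a transcription factor of the acute-phase response, were at 0.08 ± 0.12 and 0.13 ± 0.18 (SE) and turned to -0.11 and -0.14.

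To see which genes varied from animal to animal as the members did, each gene was centred on the mean of its group and correlated over the 12 samples. The genes named are among the 3 with the highest Pearson correlation for each of 4 members, so these values are extremes by choice. All genes of a sample share its housekeeping factor, so values with TMM scaling are given second. Il6st went with Tirap (0.91 and 0.90), an adaptor of Toll-like receptors, and with Tlr9 (0.88 and 0.88), an endosomal sensor of DNA. Il6ra went with Fkbp5 (0.86 and 0.90), a gene induced by glucocorticoids, Ifnar2 (0.84 and 0.89), a type I interferon receptor chain, and Il21r (0.80 and 0.87). Stat3 went with Tnfrsf14 (0.88 and 0.78) and Nfatc1 (0.87 and 0.78). Socs3 went with Prim1 (0.84 and 0.83), Nfkbiz (0.84 and 0.84), which is induced with the early inflammatory genes, and the chemokine Ccl4 (0.82 and 0.82). The median over all tested genes was 0.01, -0.06, 0.16 and 0.13 for the 4 members, or -0.05, 0.03, -0.07 and 0.04 with TMM.

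Among the 15 pairs of members these correlations ran from -0.34 (Il6ra with Stat3) to 0.41 (Il6 with Ebi3) over 12 samples, and with TMM from -0.43 (Ebi3 with Stat3) to 0.54 (Il6 with Ebi3). Il6 was above background in only 6 of 12 samples, and BDS 25 was the highest sample for both Il6 and Ebi3. How far the value of this pair rests on BDS 25 was not tested. Il6st with Stat3 gave 0.39 (0.24 with TMM), Il6st with Socs3 0.36 (0.25), Il6ra with Il6 0.32 (0.50), Stat3 with Socs3 0.27 (0.12) and Il6st with Il6ra -0.19 (0.03).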

How the data were processed

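Barcode counts of 545 endogenous genes, 14 housekeeping genes, 8 negative and 6 positive controls were deposited as raw counts, per the file headers and the labels' protocols. A second table holds the authors' deposited scores (counts scaled to positive controls and housekeeping genes, per the design text), a percent of samples above background for each gene, and their fold (the ratio of BDS to control) with its p-value, not adjusted. Counting software and genome build are not given in the sources used here.

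Counts were scaled by Alas1, Gapdh, Oaz1, Polr1b, Sdha and Tbp (factor relative to the mean over samples). Fold changes of the members depended on this reference in size and, for Il6ra and Ebi3, also in sign. Groups were compared with edgeR 4.0.16 (R 4.3.3, quasi-likelihood test, Benjamini-Hochberg over 357 genes); SE is the log2 fold change over the root of F. limma 3.58.1 used log2 values with a pseudocount of 1 or 10, and DESeq2 1.42.0 was an alternative (its local dispersion trend was added after seeing the data). The test was checked on simulated data. No batch is named in the labels. The members, lists and settings, including the removal of BDS 21, BDS 25 and BDS 55, were chosen with earlier results of these data known. Some genes that the naming rule picks are not reported here. Named are the 6 members, pathway genes among the 8 of smallest p, genes among the 3 most like each of 4 members, and, chosen after their values were seen, Jak1, Il27, Il12a, Lif and markers of other cells. The accessions of the 6 members were found in the RefSeq table. Precision is set by the spread of 6 samples per group.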

Additional observations from a re-analysis of the deposited data

Results flagged for a closer look

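In 34 groups of 6 samples (the members, 8 pathway genes and 3 ratios), 5 values lay apart from the rest of a group by more than the 95% limit of Dixon's test. By chance about 1 group in 20 holds such a value. BDS 25 was high in Il6, at 39.8 normalized counts. BDS 43 was high in Socs3, at 1600 normalized counts. BDS 21 was high in Il11ra1, at 44.1 normalized counts, and control 13 in Il27ra, at 29.0 normalized counts. BDS 35 had a high log2 ratio of Il6st to Stat3, at 3.64.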

How the results depend on the processing

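No paired analysis was possible because the groups share no replicate number. Il6st kept its sign and an unadjusted p under 0.05 under 26 of 26 alternatives (log2 -0.75 to -0.21, adjusted p 0.00856 to 0.771). Il6 kept its sign under 25 of 25 (0.13 to 0.73), Stat3 under 26 (-0.59 to -0.08) and Socs3 under 26 (-0.62 to -0.03). The unadjusted p of Il6 was under 0.05 in 21 of its 25 alternatives. Il6 could not be tested among genes above background in all samples. Il6ra turned to 0.06 with TMM and 0.052 with DESeq2 size factors (-0.073 to 0.009 with single samples left out), and Ebi3 to -0.081 with positive-control scaling; the cause was not tested. The difference in Socs3 to Stat3 ran from -0.093 to 0.243 with single samples left out, and that in Il6st to Stat3 from -0.284 (without BDS 35) to -0.137. Genes past the adjusted threshold numbered 0, but 1 with positive-control scaling and 0 to 4 with single samples left out (4 without BDS 7). Genes at an unadjusted p under 0.05 numbered 44, but 29 with DESeq2 size factors, 20 without BDS 21, BDS 25 and BDS 55, and 26 to 96 with single samples left out (96 without BDS 7, 26 without BDS 25 or BDS 55). DESeq2 called 0 genes with its default parametric dispersion trend and 18 with a local trend, a setting chosen after seeing the data, in which Il6st (-0.38) passed at an adjusted p of 0.00856; Il6, Ebi3 and Stat3 got no adjusted p there. Depth limits Il6, Il11ra1 and Il27ra, whose counts lie near the negative probes.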
